A study of Homo sapiens with 6 samples.

Results

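SF1, KHDRBS1, U2AF2 and SF3B1 encode 4 proteins that meet at the branch site of introns or share an RNA-binding fold with QKI, and the crosslink events on the transcripts of these 4 genes are described here. The members are the stretches of hg19 that hold these genes, each read on the strand of the gene, out of a genome that gave 174732 strand-specific 10 kb windows with any event. SF1 lies on the minus strand of chromosome 11 from 64532076 to 64546316, KHDRBS1 on the plus strand of chromosome 1 from 32479295 to 32526451, U2AF2 on the plus strand of chromosome 19 from 56165416 to 56186082, and SF3B1 on the minus strand of chromosome 2 from 198256698 to 198299815. The rule names the genes by what their proteins do and uses no crosslink value. Exons, introns and UTRs were not assigned, so places within a gene are given as the distance in nt from the 5′ end of its stretch.

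The libraries come from BEAS2B cells, a human cell line of bronchial epithelium, irradiated with UV at 150 mJ/cm2 to fix proteins to the RNA they touch. In iCLIP the reverse transcriptase stops at the crosslink, so each deposited event marks a single nucleotide. There are 3 QKI-5 libraries, made with an antibody (self-made, per the labels) against QKI-5, the nuclear form of Quaking, and 3 control libraries made with no antibody. The labels name no other treatment, describe a high and a low RNase dilution without saying which library had which, and leave unsaid whether replicates came from different cultures. Each p-value therefore measures the spread among 6 libraries, and part of that spread could be technical. The QKI-5 libraries held 2143279 to 7283982 events and the controls 29810 to 137926, so that 1 event is worth 0.137 to 0.467 events per 1000000 library events (EPM) in QKI-5 libraries and 7.25 to 33.5 EPM in controls. Control values are therefore coarse. No library measured RNA abundance, so more RNA and more crosslinks per RNA cannot be told apart.

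SF1, the branch point binding protein, binds the branch site sequence early in spliceosome assembly, beside U2AF2, the large U2AF subunit, which binds the polypyrimidine tract. SF3B1, the largest SF3b subunit of the U2 snRNP, holds the branch site after SF1 has left. KHDRBS1, also called Sam68, is a nuclear splicing regulator of the STAR family, in which a KH domain binds single-stranded RNA. QKI is itself a STAR protein, SF1 carries a related KH domain, and the sequence that QKI prefers resembles the branch site.

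SF1 carried the densest crosslinking of the 4 transcripts, and much of it fell in a pair of narrow stretches. QKI-5 replicates 1, 2 and 3 held 342, 255 and 292 EPM on SF1, against 116, 72.3 and 369 EPM in control replicates 1, 2 and 3, from 2494, 547 and 845 events against 16, 3 and 11. The QKI-5 libraries lay closer together than the controls did. Control replicate 3 stood above all QKI-5 libraries and the other controls below all of them. The mean was 297 ± 43.7 EPM with the antibody and 186 ± 160 EPM without it (SD, n = 3 each), a difference within the spread of the controls (two-sided exact permutation p = 0.4, where 0.1 is the smallest possible). Pooled over libraries, the QKI-5 level was 2.20 times the control level, with an exact 95% interval of 1.54 to 3.27 that covers counting error only.

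KHDRBS1 had the smallest spread of the 4 in the QKI-5 libraries, with 146, 146 and 142 EPM in replicates 1, 2 and 3 (1062, 312 and 411 events). Counting error alone is wider, with exact 95% intervals of 130 to 163 EPM in replicate 2 and 129 to 157 EPM in replicate 3. The closeness is therefore not read as a trait of the gene. The controls held 109, 193 and 470 EPM from 15, 8 and 14 events and spread on both sides of the QKI-5 values. The mean was 145 ± 1.98 EPM with the antibody and 257 ± 189 EPM without it (SD, n = 3 each, two-sided exact permutation p = 0.4), and the pooled ratio of QKI-5 to control was 0.819 (exact 95% interval 0.592 to 1.17).

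The U2AF2 level was 52.0, 62.5 and 32.5 EPM in the QKI-5 libraries, from 379, 134 and 94 events. In the controls it was 72.5 and 241 EPM from 10 events each in replicates 1 and 2, and no event in replicate 3, where 3 events would be 100.6 EPM. The mean was 49.0 ± 15.2 EPM with the antibody and 105 ± 124 EPM without it (SD, n = 3 each, two-sided exact permutation p = 0.7), and the sign of that difference rests on control replicate 2, since without it QKI-5 exceeded control by 12.8 EPM. The pooled ratio of QKI-5 to control was 0.516 (exact 95% interval 0.331 to 0.85, counting error only).

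For SF3B1 the QKI-5 libraries gave 74.0, 74.7 and 84.8 EPM from 539, 160 and 245 events, against 109, 24.1 and 100.6 EPM from 15, 1 and 3 events in the controls. The QKI-5 values lay inside the control range, and the means, 77.8 ± 6.06 EPM with the antibody and 77.8 ± 46.7 EPM without it (SD, n = 3 each), could not be separated (two-sided exact permutation p = 1). No locus had every QKI-5 value above every control value, an order seen in 23.7% of the 29960 windows tested.

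**Figure D1:**
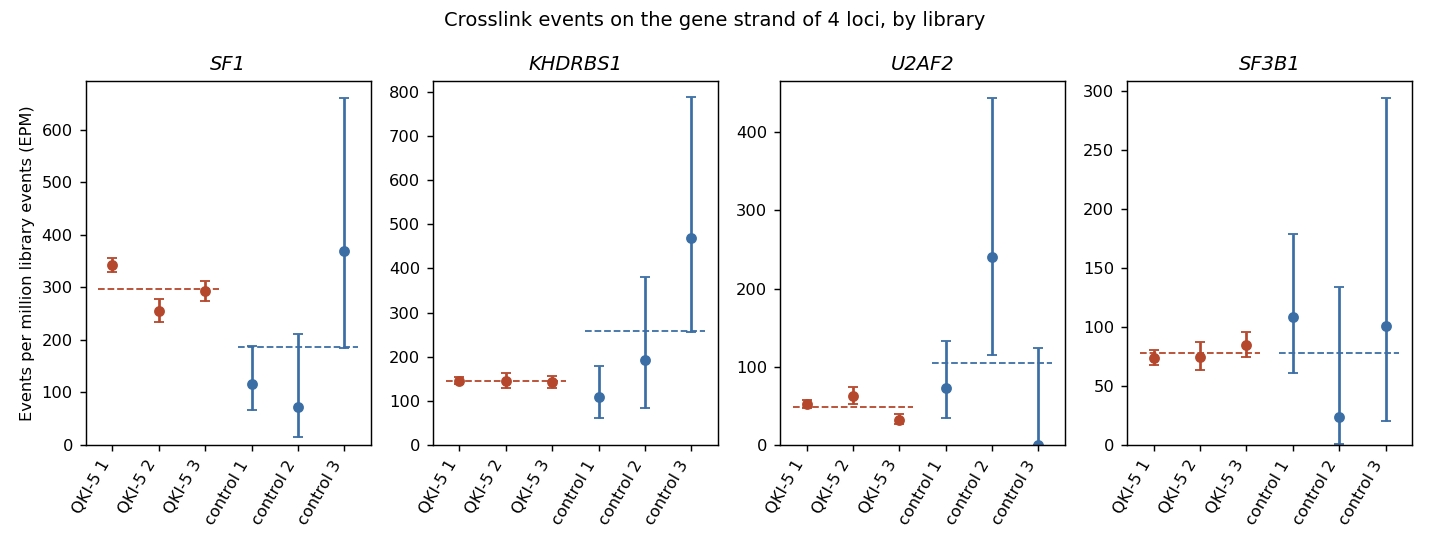
EPM on the gene strand of each locus, 1 point per library, with exact 95% binomial intervals (counting error only) and the group mean as a dashed line; QKI-5 libraries are red and controls blue. The QKI-5 points are tight in KHDRBS1, at 142 to 146 EPM, but run from 255 to 342 EPM in SF1 and from 32.5 to 62.5 EPM in U2AF2. The controls range from 109 to 470 EPM in KHDRBS1 and overlap the QKI-5 points in all 4 panels.

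Read per length, the order in QKI-5 libraries was SF1, KHDRBS1, U2AF2 and SF3B1, with 20.8 ± 3.07, 3.07 ± 0.042, 2.37 ± 0.74 and 1.80 ± 0.14 EPM per kb (SD, n = 3). SF1 stood far above the others in each QKI-5 library. KHDRBS1 and U2AF2 were nearly level in replicate 2 (3.09 and 3.03 EPM per kb) and, like U2AF2 and SF3B1, did not differ beyond the spread of U2AF2. In QKI-5 replicate 3 the order of those last genes was turned, with 1.57 EPM per kb for U2AF2 and 1.97 EPM per kb for SF3B1. Against the 174009 windows with QKI-5 events, whose median was 0.0806 EPM per kb, SF1 stood at percentile 99.95. KHDRBS1, U2AF2 and SF3B1 stood at percentiles 97.1, 95.3 and 92.5. In controls SF1 also had the highest mean, 13 ± 11.2 EPM per kb, at percentile 99.7 of the 55861 windows with control events. KHDRBS1, U2AF2 and SF3B1 stood at percentiles 96.9, 96.3 and 73.2 of those windows. Their median was 0.804 EPM per kb, so percentiles of QKI-5 and control are not on one scale. The control means of KHDRBS1, U2AF2 and SF3B1 were 5.45 ± 4.0, 5.06 ± 5.99 and 1.81 ± 1.08 EPM per kb (SD, n = 3), and in control replicate 2 U2AF2, with 11.7 EPM per kb, was above SF1, with 5.08 EPM per kb.

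Events followed the strand of the genes. Over the 4 loci the QKI-5 libraries held 7222 events on the gene strand and 13 on the other (0.18%), and the controls held 106 and 0, which allows a share of up to 2.83%. Of the 13 opposite-strand events, 7 came from QKI-5 replicate 3 at KHDRBS1. The share on the gene strand did not separate the groups at any locus (two-sided exact permutation p of 0.4 to 1, with 2 controls for U2AF2, since control replicate 3 has no event there). Upstream of the loci, the 10 kb before SF1 held 0.140 to 1.00 EPM per kb in QKI-5 libraries, against 17.9 to 24.0 EPM per kb within the gene. The 10 kb before SF3B1 held no QKI-5 event on that strand.

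Each locus was then tested as 1 feature beside all windows outside the loci, with the quasi-likelihood test of edgeR on event counts (Benjamini-Hochberg adjustment over 29950 features). None of the 4 loci was called at an adjusted p under 0.05, while 0.758% of all features (227) were called higher and 0.107% (32) lower in QKI-5. With library totals as the scale 23 features were called higher and 58 lower. At an unadjusted p under 0.05 there was 1 of the 4, SF1, where 18.5% of all features had such a p. With library totals the 1 locus was U2AF2, lower in QKI-5 (log2 fold change -1.02, unadjusted p = 0.047, adjusted p = 0.369 by edgeR), where 13.3% of features had such a p, and the unadjusted p of SF1 was 0.0514. The Wald test of DESeq2 called SF1 (adjusted p = 0.00535), in a table where it called 1.44% of features higher and 0.501% lower. The log2 fold change of SF1, QKI-5 over control, was 1.62 (SE 0.54, adjusted p = 0.103 by edgeR), where the median over all features was 0.78, or 0.22 with library totals. KHDRBS1, U2AF2 and SF3B1 had log2 fold changes of 0.25 (SE 0.49), -0.39 (SE 0.52) and 0.39 (SE 0.53), all below that median, at adjusted p of 0.827, 0.736 and 0.740 by edgeR. SF1 was called by edgeR without control replicate 1 (log2 fold change 2.12, adjusted p = 0.0207), in a fit that called 1.59% of 52129 features higher and whose median log2 fold change over all features was 6.69, above that of SF1. It was also called without control replicate 3 (2.20, adjusted p = 0.0351), where 0.436% of 54839 features were called higher and the median was 0.93, and beside windows of 5 kb (1.90, adjusted p = 0.0309), where 5.88% were called higher and the median was 1.11. The adjusted p of SF1 by edgeR lay between 0.163 and 0.480 under the other scalings, filters, measures, left-out libraries and window sizes. With the replicate number as a block the adjusted p of SF1 was 0.565 by edgeR. With library totals the log2 fold change of SF1 was 0.95.

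Cut into the 10 kb windows of the genome, the 4 loci spanned 16 windows, of which 14 held enough events to be tested. The window with the 5′ part of SF1 (64540001 to 64550000) was the 1 window called, in a table where 0.754% of windows were called higher and 0.107% lower. Its level was 281, 196 and 226 EPM across QKI-5 replicates 1 to 3, against 36.3, 24.1 and 302 EPM in the controls, where control replicate 3 again exceeded every QKI-5 library. This window had an adjusted p = 0.0357 by edgeR, for a log2 fold change of 2.23 (SE 0.59). The neighbouring window, with the 3′ part of SF1 (64530001 to 64540000), held 65.2, 63.0 and 68.5 EPM with the antibody and 109, 48.2 and 67.1 EPM without it. There edgeR gave an adjusted p = 0.910 for a log2 fold change of 0.14 (SE 0.53). Both windows reach past the gene, which spans 64532076 to 64546316, so their counts include any events beyond its ends. The call of the 5′ window stood with the DESeq2 Wald test (adjusted p = 0.00214). It ended with DESeq2 size factors in edgeR (adjusted p = 0.0703), with no filter on low counts (adjusted p = 0.0775), with library totals (log2 fold change 1.56, adjusted p = 0.232 by edgeR), with distinct positions in place of events (1.35, adjusted p = 0.231) and without control replicate 2 or any 1 QKI-5 library, where the adjusted p by edgeR lay between 0.0800 and 0.255 and, without a QKI-5 library, 892 to 951 windows were left to test. With control replicate 3 left out the log2 fold change was 3.49 (adjusted p = 0.00236 by edgeR).

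In the other genes no window was called. The window of SF3B1 with the most QKI-5 events (198280001 to 198290000) had a level of 26.1, 21.9 and 37.4 EPM across the QKI-5 libraries, against 14.5 EPM, from 2 events, in control replicate 1 and no event in the other controls. Every QKI-5 library was above every control there, an order seen in 23.7% of the 29960 windows tested. The window was picked by its QKI-5 events, and 1 event would be 24.1 and 33.5 EPM in control replicates 2 and 3. Their empty counts therefore cannot show a lower level. For this window edgeR gave an adjusted p = 0.221 (unadjusted p = 0.034, where 5522 of all windows had a p under 0.05) for a log2 fold change of 2.13 (SE 1.0). The corresponding windows of KHDRBS1 (32480001 to 32490000) and U2AF2 (56170001 to 56180000) had log2 fold changes of 1.56 (SE 0.81) and 0.27 (SE 0.75), at adjusted p of 0.283 and 0.877 by edgeR. The KHDRBS1 window, picked by summed QKI-5 events, held 3, 0 and 1 control events. The KHDRBS1 window from 32500001 to 32510000 had a like mean QKI-5 level (37.8 EPM in each window), with 14.5, 96.4 and 369 EPM in the controls. Its log2 fold change was -0.61 (SE 0.55, adjusted p = 0.584 by edgeR).

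The events on SF1 were far from even along the gene. The second of 5 equal parts, counted from the 5′ end, took 69.1, 59.0 and 62.8% of the SF1 events in QKI-5 replicates 1, 2 and 3, and the part after it another 22.3, 27.2 and 23.7%. Of the 30 control events on SF1, 7 fell in the second part and 12 in the next. KHDRBS1 showed no such weight, with means of 16 to 23.6% in its 5 parts in QKI-5 libraries, although 16 of its 37 control events lay in the fourth part. U2AF2 was fullest in its first and middle parts (29.6 ± 6.14% and 27.9 ± 7.45%, SD, n = 3), while 10 of its 20 control events lay in the last part. SF3B1 was fullest in its second part, with 33.4, 26.2 and 39.2% in QKI-5 replicates 1, 2 and 3, although in replicate 2 the last part, with 29.4%, was fuller.

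**Figure D2:**
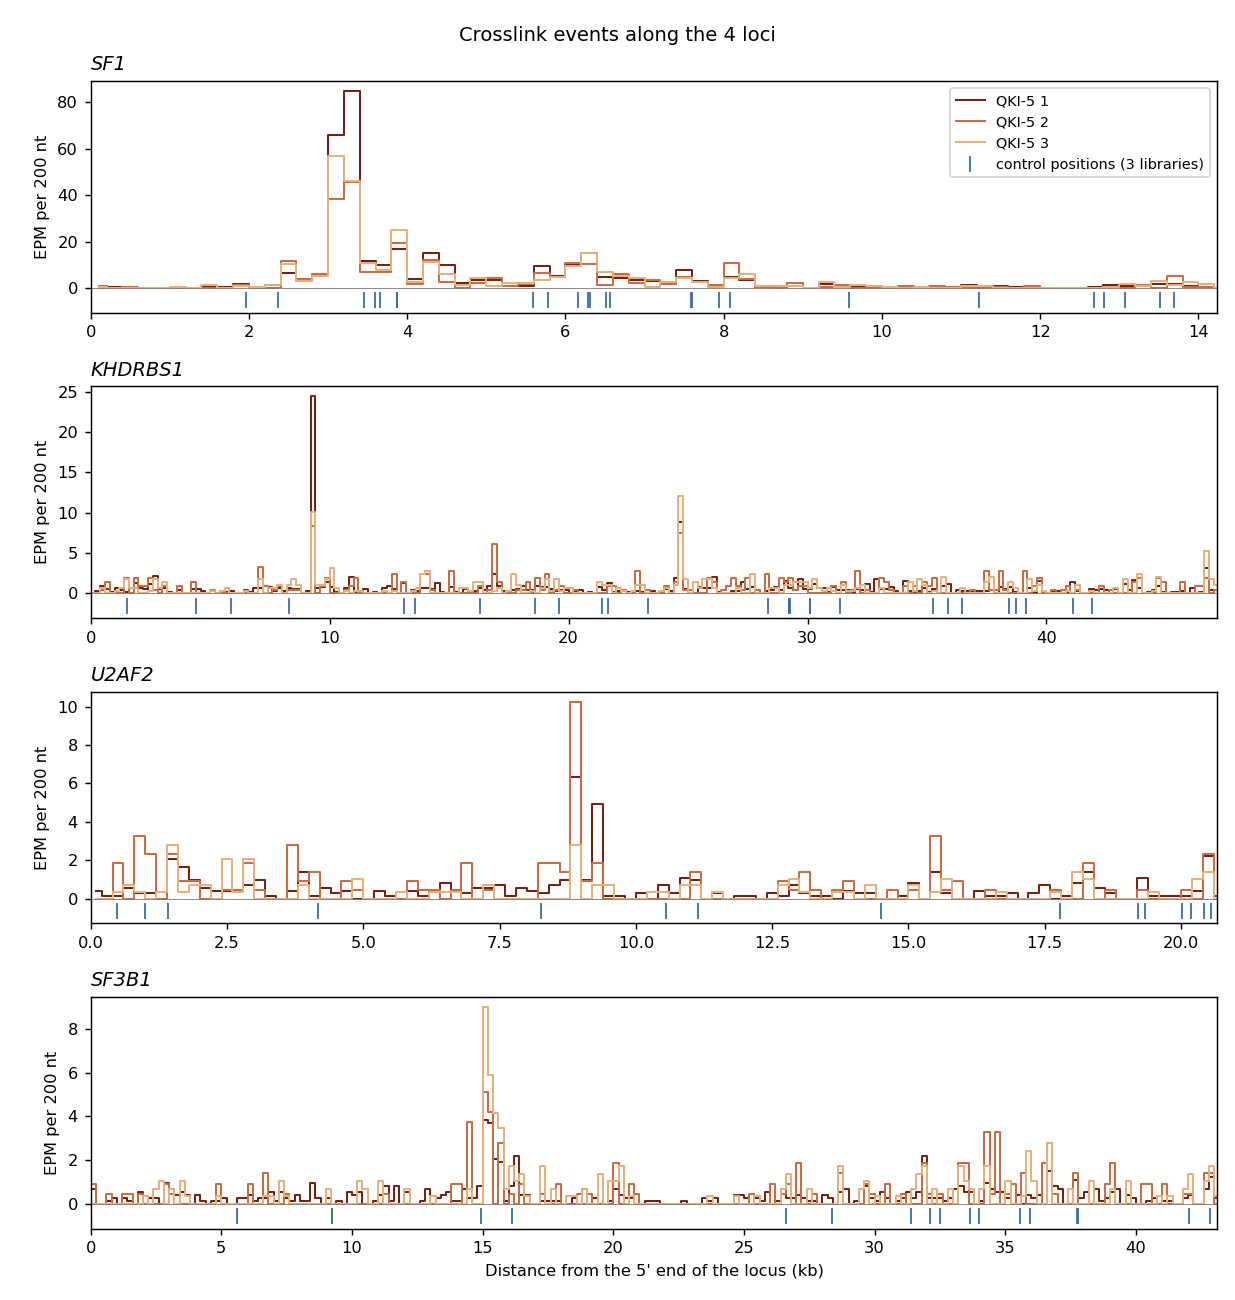
EPM per 200 nt along each locus from its 5′ end, 1 line per QKI-5 library, with each control position marked by a blue tick below the axis. SF1 has a tall double bin just past 3 kb in all 3 QKI-5 libraries with no control tick under it, and the other loci have 1 or 2 low peaks above scattered events.

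Bins of 50 nt were chosen in QKI-5 replicate 1 and measured in the libraries that had no part in the choice. On SF1 the 5 fullest bins, 1.75% of its length, held 36.0 and 38.1% of the events in QKI-5 replicates 2 and 3, and 2 of 30 control events (6.67%, exact 95% interval 0.818 to 22.1%). The bin from 3151 to 3200 nt held 403, 67 and 142 events in QKI-5 replicates 1, 2 and 3 and that from 3351 to 3400 nt held 417, 59 and 54. Both were empty in all 3 controls, whose 30 pooled events on SF1 allow a share of up to 10% (counting error only). The bin from 3151 nt held 12.2 and 16.8% of SF1 events in QKI-5 replicates 2 and 3. The bin from 3351 nt held 10.8 and 6.39%, close to that bound in replicate 2 and below it in replicate 3. At this depth the controls therefore do not separate from replicate 3 in the bin from 3351 nt. In replicates 2 and 3 the bin from 3151 nt ranked 1 among the SF1 bins, and the bin from 3351 nt ranked 2 and 3.

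Joining positions of QKI-5 replicate 1 that lay at most 10 nt apart drew the edges of these sites, a step added after the data were seen. The 2 fullest runs on SF1 reached from 3262 to 3396 nt (hg19 chromosome 11, 64542921 to 64543055) and from 3104 to 3225 nt (64543092 to 64543213). Together they covered 1.80% of the gene and held 42.3, 30.9 and 34.0% of its events in QKI-5 replicates 1, 2 and 3. None of the 30 control events (16, 3 and 11 in replicates 1, 2 and 3) fell in them. Pooled as independent events, these allow a control share of up to 10%, below both held-out shares. That bound covers counting error only, not the spread among the controls, and no single control had enough events for it. With positions at most 20 nt apart joined, the pair became 1 run from 3089 to 3483 nt, which held 33.5 and 36.3% of SF1 events in QKI-5 replicates 2 and 3 and 2 of the 30 control events, both at 3458 nt in control replicate 3. Outside the pair, whose removal can lower the QKI-5 level by the way it was chosen, the SF1 level was 197, 176 and 193 EPM with the antibody and 116, 72.3 and 369 EPM without it, with means of 189 ± 11.1 EPM with the antibody and 186 ± 160 EPM without it (SD, n = 3 each). The nearest control events lay at 3458 nt (2 events) and 3591 nt in control replicate 3. Another run, from 3866 to 3888 nt, held 4.65, 7.13 and 7.81% of SF1 events in the QKI-5 libraries, and there control replicate 3 also had 2 of its 11 events.

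The same single nucleotides recurred within the pair and outside it. Of 1225 positions on SF1 with an event in any QKI-5 library, 90 had one in all 3, and 38 of those 90 lay between 3104 and 3396 nt. Recurrence was also dense in the run from 3866 to 3888 nt, 23 nt wide. There 19, 15 and 16 positions had events in QKI-5 replicates 1, 2 and 3. Positions 3874 and 3875 of that run were hit in all 3 and also held 1 event each in control replicate 3. Position 3176 held 33, 14 and 26 events in QKI-5 replicates 1, 2 and 3 and was the highest of SF1 in replicates 2 and 3. Position 3365 held 49, 12 and 11 events and was the highest in replicate 1. Position 3162, with 46 events in replicate 1, had only 2 and 6 in the other QKI-5 libraries, while the pair of sites was full in each library.

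**Figure D3:**
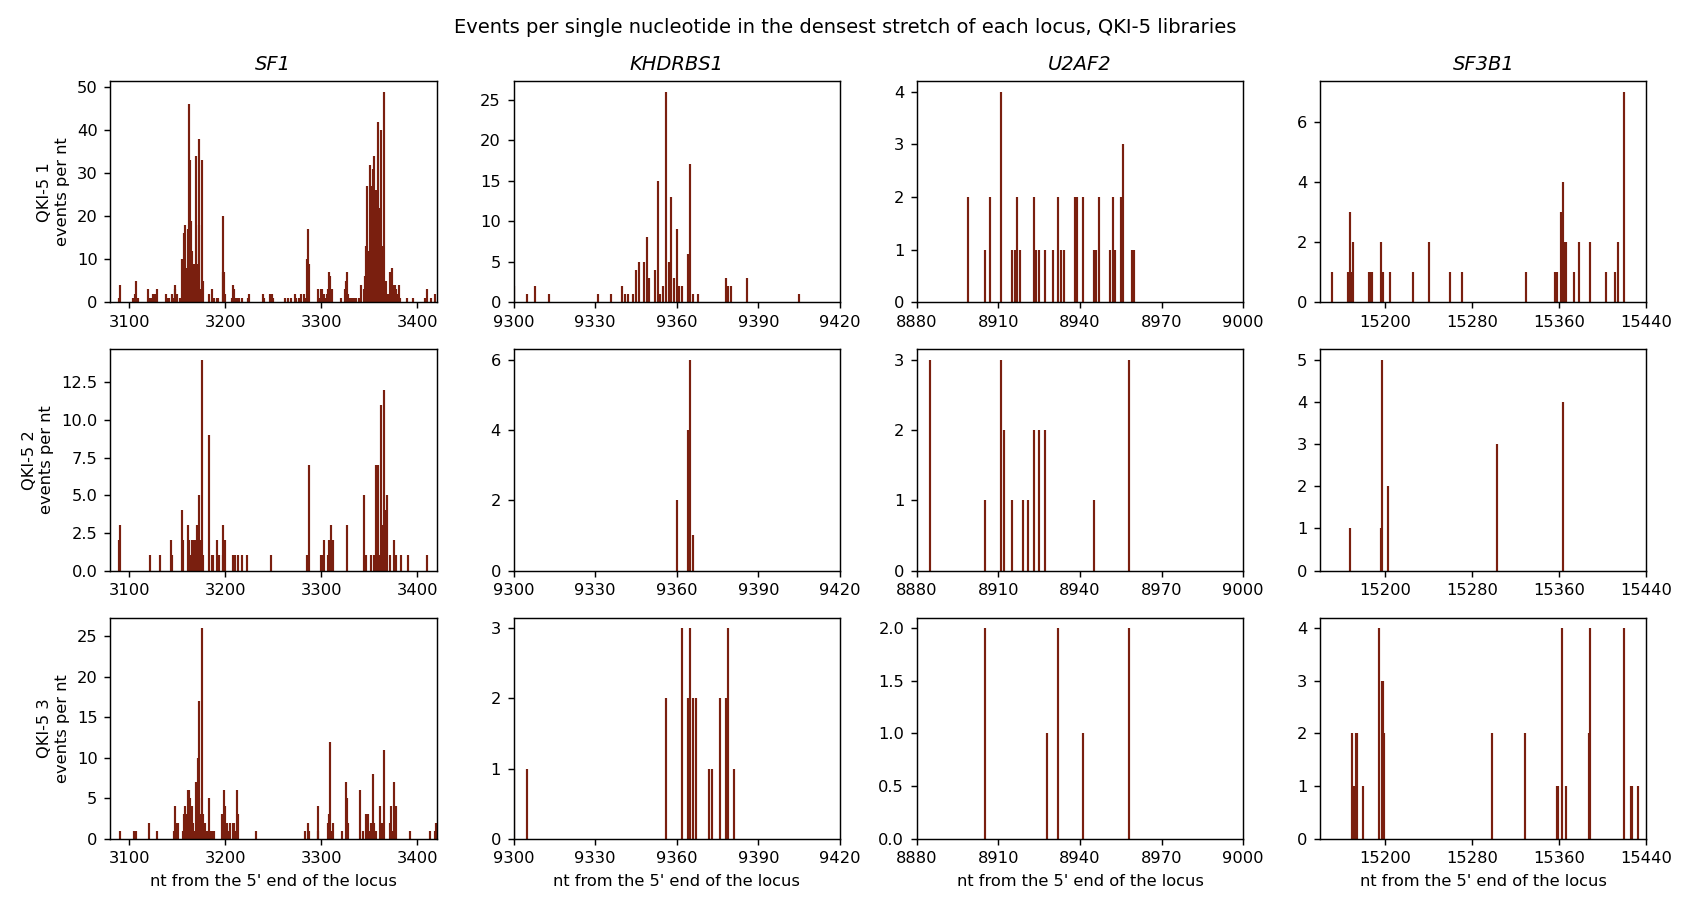
Events at each nucleotide in the densest stretch of each locus, 1 row per QKI-5 library and each panel on its own vertical scale. SF1 shows the same pair of clusters, near 3176 and 3365 nt, in all 3 libraries, and the KHDRBS1 cluster near 9365 nt is broad in replicate 1 and thin in replicate 2.

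KHDRBS1 had 1 focal site that returned in each QKI-5 library. The bin from 9351 to 9400 nt (hg19 chromosome 1, 32488645 to 32488694) was the fullest of its 944 bins in all 3, with 117, 13 and 24 events, or 11, 4.17 and 5.84% of the events on the gene. No control event fell in it, and with 37 control events on the gene a share of up to 8.11% could have been missed, so the controls do not separate from the held-out libraries at this depth. Its crest at 9365 nt held 17, 6 and 3 events and the nucleotides beside it, 9364 and 9366, were also hit in each QKI-5 library. Position 9356, the highest in replicate 1 with 26 events, had 0 and 2 in the others. Another site, from 24701 to 24750 nt, held 38, 3 and 15 events and ranked 2 in replicates 1 and 3 but 19 in replicate 2. The bin from 9301 to 9350 nt, ranked 3 in replicate 1 with 36 events, had 0 and 1 in replicates 2 and 3.

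U2AF2 and SF3B1 each had a modest site. On U2AF2 the bin from 8901 to 8950 nt (hg19 chromosome 19, 56174316 to 56174365) held 32, 16 and 6 events, 8.44, 11.9 and 6.38% of the gene. No control event fell in it, but 20 control events on the gene allow a share of up to 15%, above all 3 of these shares. It was the fullest of the U2AF2 bins in replicates 1 and 2. In replicate 3 the bin from 1401 to 1450 nt, which also held 1 event of control replicate 1, had as many events. The bin from 9251 to 9300 nt held 24 events in replicate 1 but 0 and 1 in the others. On SF3B1 the bins from 15151 to 15200 nt (chromosome 2, 198284616 to 198284665) and from 15351 to 15400 nt (198284416 to 198284465) held 15, 7 and 20 events and 20, 4 and 13 events in QKI-5 replicates 1, 2 and 3, at most 8.16% of the events on the gene in either bin. No control event fell in them, but 19 control events allow a share of up to 15.8%, so at this depth the controls do not separate from the QKI-5 libraries. The bin from 15151 nt was the fullest of SF3B1 in replicates 2 and 3. No single nucleotide of SF3B1 carried an event in all 3 QKI-5 libraries, against 1 of 418 crosslinked positions on U2AF2, 6 of 1122 on KHDRBS1 and the 90 on SF1, counts that also follow the number of events on each gene.

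Profiles in bins of 200 nt were more alike between QKI-5 libraries on SF1 (Pearson r of 0.95 to 0.96 and Spearman rho of 0.74 to 0.87 over 72 bins) than on the other genes (r of 0.52 to 0.77, rho of 0.22 to 0.44). These are descriptions over bins of 1 gene, which share libraries and depth, and the other genes had fewer events.

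The concentration of SF1 events was set beside that of other transcripts with at least 100 events in each QKI-5 library, 1721 windows in all. In the 5′ window of SF1, the 5 fullest bins of replicate 1 held 48.6% of the events of replicates 2 and 3 on average, above 91.4% of these windows and at rank 148 from the top. The median window held 25.5%, and the 3′ window of SF1, with 27.3%, lay near it. The other members' windows had too few events to enter.

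**Figure D4:**
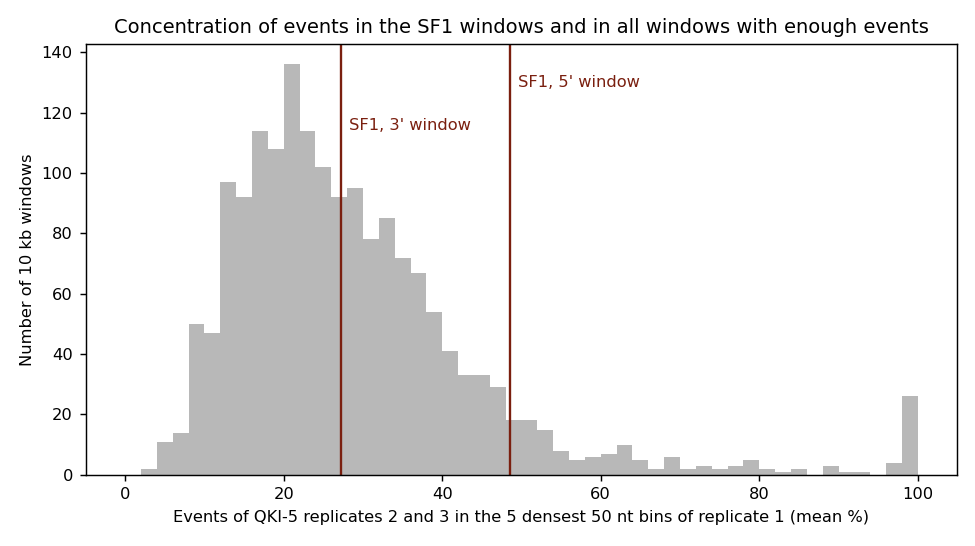
Histogram of 1721 windows of 10 kb by the share of events of QKI-5 replicates 2 and 3 that fell in the 5 fullest 50 nt bins of replicate 1, with the SF1 windows as vertical lines. The 5′ window of SF1, at 48.6%, lies in the upper tail and its 3′ window, at 27.3%, near the median of 25.5%.

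Repeated events at one position bear on all of these counts. Among crosslinked positions, 41.4, 47.0 and 55.2% on SF1 carried more than 1 event in QKI-5 replicates 1, 2 and 3, against 0 of 16, 1 of 2 and 3 of 7 positions in the controls. On SF3B1 the QKI-5 shares were 18.3, 43.6 and 49.3%, on KHDRBS1 23.4, 42.5 and 42.1%, and on U2AF2 22.0, 33.3 and 41.9%. The lowest share at each gene was that of replicate 1, the deepest library. Whether repeats are copies of 1 cDNA was not tested. With each position counted once, SF1 held 211 ± 29.9 positions per 1000000 library positions with the antibody and 203 ± 158 without it (SD, n = 3 each, two-sided exact permutation p = 1), and its second part still held 52.3% of them in QKI-5 libraries.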

How the data were processed

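Crosslink events were analysed in 3 QKI-5 iCLIP and 3 control libraries of BEAS2B cells. The authors deposited whole-number counts of events at single positions with strand, not normalized, 1 library a file. The tools named in the submitters' processing notes are cutadapt and Bowtie, with the build hg19. No source used here gives versions, any merging of PCR copies by barcode or the placing of reads with several alignments, so intervals and the floor of 3 events cover counting error only. Coordinates are 1-based. Without an hg19 genome or annotation in use, the planned lists of other branch site factors, other STAR genes, cell type markers and genes of like pattern, and any sequence, were not analysed. The 4 genes, lists and rules were chosen with earlier results of these data known.

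Counts per locus and per strand-specific 10 kb window were tested with edgeR 4.0.16 (R 4.3.3, limma 3.58.1; TMM factors, filterByExpr, group as the only term) after a test on simulated data. The SE of a log2 fold change is its size divided by the square root of F. EPM carry no TMM factor. DESeq2 1.42.0, other scalings, no filter, distinct positions, window sizes of 5 and 20 kb, other joins of positions into runs (added after the data were seen) and each library left out were alternatives. Named items are the 4 loci, the called windows, the window with the most QKI-5 events in each locus, and the first 3 of the 5 bins. The runs, single nucleotides and other windows were named after their values were seen. Python 3.11.15, numpy 2.4.6, pandas 2.3.3, scipy 1.17.1 and matplotlib 3.10.9 were used.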

Additional observations from a re-analysis of the deposited data

How the results depend on the processing

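Depth of the controls limits every comparison, since each locus rests on 19 to 37 control events. Called loci numbered 0, but 1 (SF1) with the DESeq2 Wald test, without control replicate 1 or 3, and beside windows of 5 kb. The SF1 log2 fold change was 1.41 with DESeq2 and 1.90 beside windows of 5 kb, and lay between 0.84 and 2.20 with 1 library left out. KHDRBS1 turned to -0.49 and SF3B1 to -0.18 with library totals, SF3B1 to -0.041 with distinct positions, and U2AF2 to 0.10 with no filter on low counts. With 1 library left out they lay between -0.59 and 0.86, -0.37 and 1.99, and -1.33 and 0.46 for KHDRBS1, SF3B1 and U2AF2, so no direction of these 3 was stable. The low end of each locus, SF1 included, came from a fit without 1 QKI-5 library. Those fits kept 894 to 953 features, against 29950 in the main fit. Their median log2 fold change was 0.25 to 0.31, against 0.78, so the set of features changed along with the libraries. The U2AF2 window from 56170001 turned to -0.32 with library totals. Called windows numbered 1, and 0 with DESeq2 size factors, library totals, no filter, distinct positions or the replicate block, and 0 to 1 with 1 library left out. The cause was not tested. Over all features 227 were called higher and 32 lower; these counts were 85 and 35 with DESeq2 size factors, 159 and 6 with no filter, 430 and 150 with the DESeq2 Wald test, 26 and 66 with distinct positions, 1443 and 51 beside windows of 5 kb, 74 and 29 beside windows of 20 kb, and 831 and 8, 50 and 10, and 239 and 26 without control replicate 1, 2 or 3. The median log2 fold change over all features was 6.69 without control replicate 1, so values of that fit are not on the scale of the others.

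With the replicate number as a block, no locus was called. The log2 fold changes were 1.75 (adjusted p = 0.565 by edgeR), 0.26, -0.08 and 0.73 for SF1, KHDRBS1, U2AF2 and SF3B1, and over all windows 0 were called (smallest adjusted p 0.2, 2195 at an unadjusted p under 0.05). Deviations of same-numbered libraries correlated at -0.003, 0.10 and 0.07. QKI-5 replicates 2 and 3 correlated best with the control of their own number, while QKI-5 replicate 1 correlated best with control replicate 3 (0.06). These low values do not settle whether the numbers are pairs, and the main test did not take them as pairs.

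The difference in EPM, QKI-5 minus control, lay with 1 library left out between 54.2 and 203 for SF1, -187 and -6.28 for KHDRBS1, -108 and 12.8 for U2AF2 and -26.9 and 15.4 for SF3B1. Counted as distinct positions per 1000000 library positions and kb, density was 14.8 for SF1 and 3.19 for KHDRBS1. The second part of SF1 held 52.3% of positions. Positions with more than 2 events made up 22.1, 9.72, 7.19 and 13.1% for SF1, KHDRBS1, U2AF2 and SF3B1. The held-out share of the 5 bins, 37.1% on SF1, was 41.4 and 40.4% when chosen in QKI-5 replicate 2 or 3, 27.1% with bins of 20 nt, 42.2% with bins of 100 nt and 20.5% with distinct positions. On U2AF2 it was 18.6%, and 13.9, 15.7, 11.9 and 15.3% when chosen in replicate 2 or 3, with bins of 20 nt and with distinct positions. On SF3B1 it was 13.8%, 8.55 and 8.76% when chosen in replicate 2 or 3, and 5.96% with bins of 20 nt. The 3 fullest runs of SF1 held 39.9% of its events in the libraries not used to choose them, 30.1 and 46.7% with positions at most 5 or 20 nt apart joined, and 37.1 and 36.1% when chosen in QKI-5 replicate 2 or 3. The runs of U2AF2 held 16.6%, but 3.31 and 1.43% when chosen in replicate 2 or 3, and those of KHDRBS1 8.15%, but 3.22% when chosen in replicate 2. The runs of SF3B1 held 5.64%, but 12.6% with positions at most 20 nt apart joined and 2.0% when chosen in replicate 2.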
